A study of Arabidopsis thaliana with 3 samples.

Results

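TRICHOME BIREFRINGENCE-LIKE (TBL) proteins are a plant family, most of whose studied members add acetyl groups to cell wall polysaccharides. Their transcripts were followed here in the lateral nectaries, the larger nectar glands, of Arabidopsis thaliana Columbia-0 flowers. The family was taken as every probe set whose single gene symbol in the platform annotation was TBL followed by a number, which gave 11 of the 14338 probe sets besides controls, each for a different gene. The groups were cwinv4-1 plants (2 arrays) and wild-type plants (1 array), both of the same ecotype and 30 to 35 days old, and the labels name no treatment. CWINV4 encodes a cell wall invertase, which splits sucrose outside the cell, and the series' title calls the mutant nectarless. Each sample pooled about 250 to 300 hand-dissected glands of stage 14 to 15 flowers, so it is a mean over many flowers and over every cell type of the dissected tissue. In such a sample a lower share of a cell type and less RNA per cell cannot be told apart. The comparison asks which members differ between secreting and nectarless glands.

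Xylan, xyloglucan, mannans and pectins leave the Golgi with acetyl groups on some of their sugars, and these groups alter how the polymers fold, bind cellulose and yield to enzymes. Membrane proteins of the REDUCED WALL ACETYLATION (RWA) type take part in supplying the acetyl groups, and TBL proteins hand them to a given polymer. The family is named after TRICHOME BIREFRINGENCE, whose loss takes away the birefringence that crystalline cellulose gives to leaf hairs. Nectar passes through the walls of the gland before it reaches the surface.

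RefSeq's gene table held 45 loci with a TBL name, and 12 of them had a named probe set here. These were the 11 members and AT2G31110, which RefSeq lists under the synonym TBL40 and the platform names only by its locus code. The other 33 loci, among them the xylan acetyltransferase gene ESK1 (TBL29) and the xyloglucan acetyltransferase gene TBL27, are not analysed here. The members therefore stand for a minority of the family.

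Of the 11 members, 8 had a signal on all 3 arrays and 3 had a signal on a single array. Among all probe sets 72.1% had a signal on all 3 arrays and 10.9% on a single one. Signals are the authors' linear intensities, and precision is limited throughout by the small number of arrays. A signal is called low below when it lay under the 25th percentile of its array, which was 192.8 and 266.4 for mutant replicates 1 and 2 and 203.8 for wild-type. Levels of different probe sets are not set against each other.

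The mutant arrays were not alike. The SD of the log2 difference over 10334 probe sets was 0.65 between the mutant arrays, against 0.44 between replicate 1 and wild-type. A GAPDH control pair read 11.2 times as high at its 3′ as at its 5′ end on replicate 2. It read 2.87 times as high on replicate 1 and 4.81 times on wild-type. The other GAPDH pair read 2.44 times as high on replicate 2, 1.28 times on replicate 1 and 1.38 times on wild-type. Of all probe sets, 20.7% had no signal on replicate 2, against 13.2% on replicate 1 and 13.1% on wild-type. CWINV4 has no named probe set here, so the mutated gene could not check the labels. Of 7 nectary markers 1 was measured, the sucrose exporter gene SWEET9, at 16300 and 38100 on the mutant arrays and 19700 on wild-type. The other tissue markers, 6 of 12 measured, each had a signal on every array. Summed signals on replicate 1, replicate 2 and wild-type were 2753, 1488 and 2858 for 3 of 4 pollen markers. The pollen markers did not move together. In the same order AT3G07820 read 569.1, 128.2 and 658, and TUA1 read 1570, 724.9 and 1526. AT5G45880 differed little between the arrays, at 614.1, 634.8 and 674.3. The carpel gene SPT, alone of 4 carpel and petal markers, read 767.7, 390.9 and 877.3. Summed signals of 2 of 4 leaf and sepal photosynthesis markers, RCA and LHCB4.1, were 17240, 15065 and 19307. RCA read 10100, 9857 and 11200, and LHCB4.1 read 7140, 5208 and 8107. The part of these differences in the values below was not tested.

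**Figure D1:**
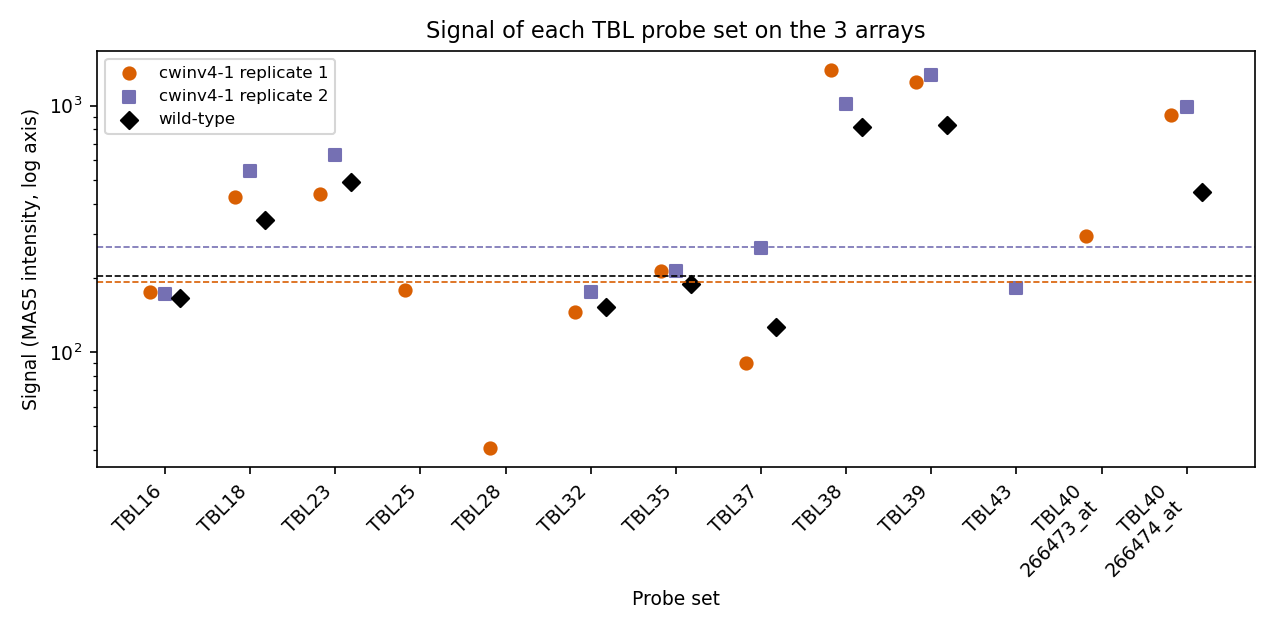
Signal (log axis) of the 11 TBL probe sets and the 2 probe sets of TBL40 on the 3 arrays, with the 25th percentile of each array as a dashed line in its colour. TBL16, TBL18, TBL35, TBL38, TBL39 and the TBL40 probe set 266474_at lie above wild-type on both mutant arrays, TBL16 and TBL35 only slightly. TBL25, TBL28 and TBL43 have no wild-type signal. Heights of different probe sets are not comparable.

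No member passed the test for a difference between cwinv4-1 and wild-type. A trend-moderated limma fit on log2 signals, adjusted by Benjamini-Hochberg, was made over the 7750 probe sets measured on all arrays with a mean log2 signal not under the 25th percentile, and 0.426% of these passed at an adjusted p of 0.05. The 4 members among them were TBL18, TBL23, TBL38 and TBL39. None had an adjusted p under 0.05, and none an unadjusted p under 0.05, which 6.49% of all tested probe sets had. With 1 wild-type array, the fit takes the spread from the mutant arrays and from the other probe sets.

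TBL39 had the largest mean difference of the members. Its signals were 1248 on cwinv4-1 replicate 1, 1331 on replicate 2 and 830.9 on wild-type. Both mutant arrays lay above wild-type and close to each other. They were 1.502-fold and 1.602-fold above it, and the log2 difference of the means was 0.63 (SE 0.38, limma adjusted p = 0.959). Its 95% interval ran from 0.892-fold to 2.70-fold, so neither equality nor a doubling lay outside it. TBL39 was the only member at least 1.5-fold above wild-type on both arrays, and 4.86% of the 10334 probe sets with 3 signals were that far above. None was that far below on both, as 3.23% of all were.

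TBL38, whose protein in the Arabidopsis seed coat has been described as removing acetyl groups from pectin rather than adding them, had signals of 1399 and 1014 on mutant replicates 1 and 2 and of 815.5 on wild-type. Both mutant arrays were again above wild-type, replicate 1 by 1.72-fold and replicate 2 by 1.24-fold. The log2 difference was 0.55 (SE 0.39, limma adjusted p = 1.00), with a 95% interval of 0.823-fold to 2.59-fold.

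TBL18 had signals of 425.1 and 544.5 in the mutant and 341.9 in wild-type. Here replicate 2 was the higher of the mutant arrays, at 1.59-fold against 1.24-fold for replicate 1. The log2 difference was 0.49 (SE 0.41, limma adjusted p = 1.00), with a 95% interval of 0.773-fold to 2.56-fold. TBL18 and TBL38 thus differed in which mutant array stood further from wild-type.

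TBL23 belongs with TBL24, TBL25 and TBL26 to the members that acetylate mannans. Its signals were 436.4 and 630.0 in the mutant and 491.0 in wild-type, so the wild-type value lay between those of the mutant. The log2 differences were -0.17 in replicate 1 and 0.36 in replicate 2, and the fitted one was 0.095 (SE 0.41, limma adjusted p = 1.00). Its 95% interval ran from 0.582-fold to 1.96-fold.

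TBL25, the other mannan member with a probe set, had a signal of 177.7 on replicate 1 and none on replicate 2 or wild-type. That signal was low for its array. What a missing value means is not given in the sources used here, so no difference is drawn from it.

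The xylan members were TBL28, TBL32 and TBL35, genes whose products acetylate the xylose units of xylan. TBL35 had signals of 212.9 and 212.6 in the mutant and 188.9 in wild-type. The mutant arrays were nearly equal and stood 1.13-fold above wild-type, a log2 difference of 0.17. These signals were low on replicate 2 and on wild-type, though not on replicate 1. TBL32 had signals of 145.2, 175.6 and 151.5 on replicate 1, replicate 2 and wild-type, all low, with wild-type between the mutant arrays. The suffix of its probe set, 251349_s_at, marks probes that match more than a single transcript, so other genes may add to this signal. TBL28 had a signal of 40.8 on replicate 1 and none on the other arrays. No xylan member reached the signal needed for the test, so these values are descriptions without a p.

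TBL37, whose product has been tied to jasmonate-linked wall acetylation in Arabidopsis, differed most between the mutant arrays. Its signals were 90.1 and 263.4 in mutant replicates 1 and 2 and 126.0 in wild-type, all low for their arrays. It lay below wild-type on replicate 1 (log2 difference -0.48) and above it on replicate 2 (1.06), so it had no common direction in the mutant. The log2 distance between the mutant arrays was 1.55, against a median distance of 0.32 over the 8 members with 3 signals and 0.35 over all 10334 such probe sets.

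TBL16 had signals of 174.3 and 172.4 in the mutant and 165.3 in wild-type, all low and at log2 differences of 0.076 and 0.061. TBL43 had a signal of 181.4 on replicate 2 and none on the other arrays. TBL25, TBL28 and TBL43, 3 of the 11 members, thus had a signal on 1 mutant array and none on wild-type, which was so for 7.46% of all probe sets. All 3 of those signals were low for their arrays.

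**Figure D2:**
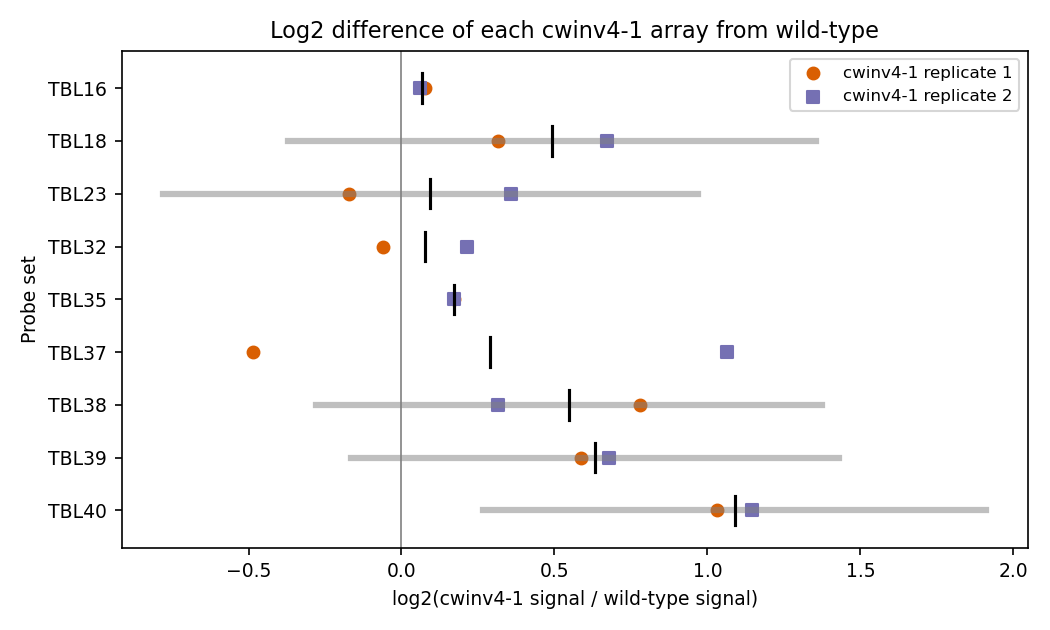
Log2 of each cwinv4-1 signal over the wild-type signal for the 8 TBL probe sets with 3 signals and for TBL40 (266474_at). Black ticks are means of the mutant arrays and grey bars 95% intervals of the limma fit, drawn where a probe set was tested. The intervals of TBL18, TBL23, TBL38 and TBL39 include 0, and that of TBL40 lies above it. The arrays of TBL23, TBL32 and TBL37 lie on opposite sides of 0, those of TBL37 furthest apart.

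Read together, 5 of the 8 members with 3 signals (TBL16, TBL18, TBL35, TBL38 and TBL39) were above wild-type on both mutant arrays and none was below it on both. Among all 10334 probe sets with 3 signals, 31.6% were above on both and 33.5% below on both. The same wild-type array stands in both ratios, and this by itself makes them go together. The median log2 difference of the 8 members was 0.23, or 0.12 for replicate 1 alone and 0.34 for replicate 2 alone, against -0.0051 over all 10334. The count depended on how the arrays were scaled, being 3 of 8 after quantile normalization. After median centring on all values it was 4, and after median centring on complete probe sets 5. It was 0 of 8 when the arrays were scaled to 18 bacterial and phage control probe sets, which shifts the median of all probe sets to 0.43 in replicate 1 and -0.73 in replicate 2. That scaling moves every probe set of an array by the same amount, so it turns signs without changing any member's distance from the median of its array. The share of all probe sets above on both arrays was counted for the deposited values only. No member was 2-fold away from wild-type on both arrays in the same direction, whereas 1.39% of the 10334 were upward and 0.900% downward.

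**Figure D3:**
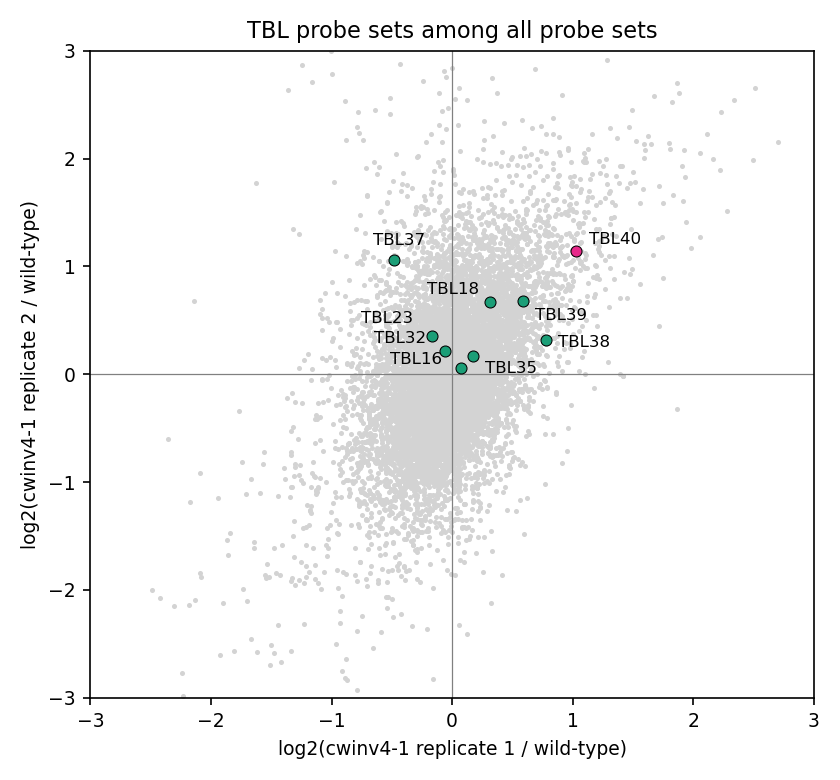
Log2 difference from wild-type on cwinv4-1 replicate 1 (x) and replicate 2 (y), with 10334 probe sets in grey, TBL members in green and TBL40 in pink. The members lie within the cloud, TBL38, TBL39 and TBL18 towards its upper right; 40 probe sets fall outside the axes, which end at 3.

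TBL40 (AT2G31110), which the symbol rule leaves out, stood further from wild-type than any member. Its probe set 266474_at had signals of 914.9 and 990.7 in the mutant and 447.6 in wild-type. The mutant arrays were close to each other and 2.04-fold and 2.21-fold above wild-type. The log2 difference was 1.09 (SE 0.39) with a 95% interval of 1.20-fold to 3.76-fold, but the limma adjusted p over all probe sets was 0.442, so it did not pass. Its unadjusted p of 0.0127 was under a level that 6.49% of tested probe sets reached. The other probe set of the gene, 266473_at, had a signal of 296.0 on replicate 1 and none on the other arrays, so the 2 probe sets could be compared on a single array only. It enters the family only where members are taken by RefSeq name, which was listed as an alternative choice of members.

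**Figure D4:**
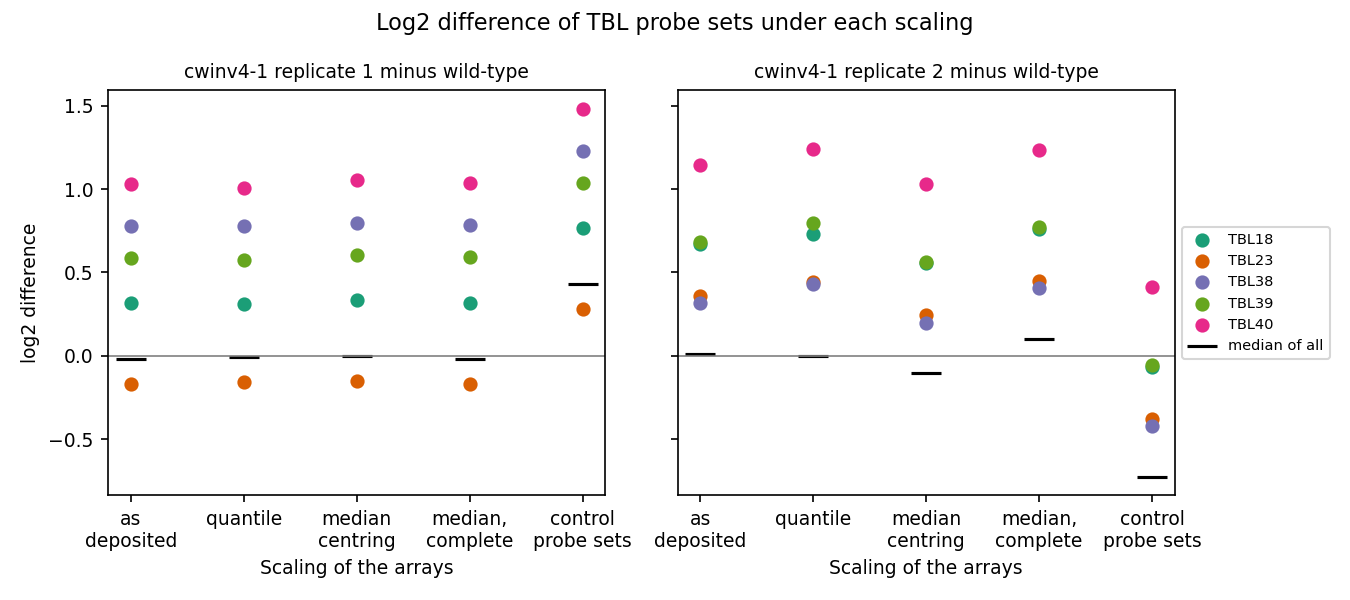
Log2 difference from wild-type of TBL18, TBL23, TBL38, TBL39 and TBL40 (266474_at) on each cwinv4-1 array under 5 scalings of the arrays, with the median of all probe sets as a black bar. TBL40 is above 0 in every panel position. TBL18, TBL23, TBL38 and TBL39 fall below 0 in replicate 2 when scaled to the control probe sets, where the median of all is -0.73. This scaling shifts every probe set of an array alike.

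Other genes of wall acetylation and of the polymers that carry the acetyl groups were followed in 7 lists of 70 loci. Of these, 15 had a named probe set. Among those 15, 11 had a signal on all arrays, as 72.1% of all probe sets did, and 7 were tested. None passed limma's test in either direction, and none of the 7 had an unadjusted p under 0.05. The RWA genes, which take part in supplying the acetyl groups, and the lists of mannan and pectin synthesis had no named probe set here. Across the 11 genes with 3 signals, 5 were above wild-type on both mutant arrays and 4 below, with a median log2 difference of 0.16. Among all 10334 probe sets with 3 signals, 31.6% were above on both and 33.5% below on both, with a median of -0.0051. Shares of all tested probe sets that passed are given with the members above.

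Among the relatives of the family, TRICHOME BIREFRINGENCE itself (AT5G06700) had signals of 1300 and 1441 in the mutant and 1802 in wild-type. It was below wild-type on both arrays, as 33.5% of all probe sets with 3 signals were. None of the 8 TBL members with 3 signals was below on both, though TBL23, TBL32 and TBL37 were below on replicate 1. The log2 difference of TRICHOME BIREFRINGENCE was -0.40 (SE 0.37, limma adjusted p = 1.00). The 95% interval ran from 0.440-fold to 1.31-fold. AT3G03210, entered in the same list and named only by its code in the gene tables, had signals of 577.2 and 911.5 in the mutant and 609.0 in wild-type, at log2 differences of -0.077 and 0.58 (limma adjusted p = 1.00).

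The list of wall deacetylation held 12 loci, of which 3 had signals on all arrays and 1 was tested. The gene tables name these only by code. AT1G57590 had signals of 1281 and 1378 in the mutant and 814.8 in wild-type, both mutant arrays above it. Its log2 difference of 0.71 (SE 0.38, limma adjusted p = 0.896) did not pass. AT3G05910 read 0.46 in replicate 1 and 0.95 in replicate 2, and AT3G09405 read -0.76 and 0.69, both from low signals. AT3G09410 had no signal on any array.

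The xyloglucan backbone is made by the CSLC glucan synthases, and their measured genes did not share a direction. CSLC5 had signals of 430.4 and 262.5 in the mutant and 611.1 in wild-type. Both mutant arrays were below wild-type, replicate 2 further, with a log2 difference of -0.86 (SE 0.43, limma adjusted p = 0.832). CSLC04 had signals of 785.8 and 685.3 in the mutant and 533.8 in wild-type, with both mutant arrays above it (log2 difference 0.46, SE 0.39, limma adjusted p = 1.00). CSLC6 read -0.058 in replicate 1 and -0.15 in replicate 2, and CSLC12 read 0.14 and 0.17 from low signals. ATCSLC08 had no signal on any array.

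Of the xylan genes, GUT1 (AT5G61840), a homologue of the xylan backbone gene IRX10, was at -0.015 in replicate 1 and -0.18 in replicate 2 (limma adjusted p = 1.00). GUT2 (AT1G27440), which RefSeq also lists as IRX10, and IRX15-L had no signal on any array. COB, whose protein is needed for oriented cellulose deposition, was at 0.55 in replicate 1 and 0.0096 in replicate 2.

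**Figure D5:**
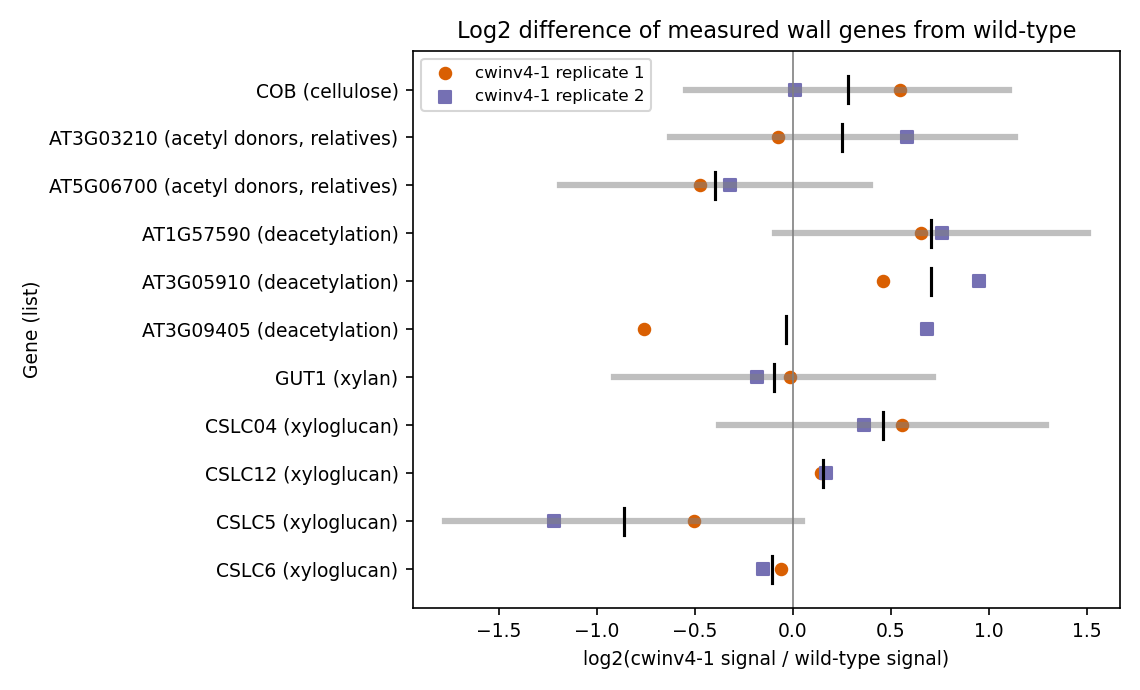
Log2 of each cwinv4-1 signal over wild-type for the 11 wall genes of the fixed lists with 3 signals, with means as black ticks and 95% limma intervals as grey bars where tested. The intervals of the 7 tested genes include 0. On both arrays 4 genes lie below wild-type, among them CSLC5 and AT5G06700, and 5 above, among them AT1G57590 and CSLC04.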

How the data were processed

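Total RNA (500 ng per sample) was amplified once, labelled with biotin and hybridised to 1-colour Affymetrix arrays, per the labels' protocols. The deposited intensity values are linear MAS5 signals per probe set, per the submitters' processing notes. The scaling target is not given in the sources used here, and per the design text further wild-type lateral nectary data entered the normalization. Cells without a value were kept as missing.

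Gene symbols came from GEO's platform annotation and locus codes from RefSeq's table for TAIR10.1. Coordinates are left out, since the files name no genome build. Values were analysed as log2 intensity in R 4.3.3 with limma 3.58.1 (lmFit, eBayes with trend), two-sided, with Benjamini-Hochberg adjustment over 7750 probe sets above the 25th percentile of mean log2 signal. The fit had 1 residual and 15.4 prior degrees of freedom. It was also run on simulated data, with changes larger than any member's difference here and the same spread on every array. That run therefore cannot show how the fit performs at differences of the members' size. Per the design text the samples are biological replicates. Mutant replicate 1 carries the title cwinv4-1a, unexplained in the labels, and was taken as the same line. Every member is named, and those tested are given in full. Measured genes of the wall lists are named with their log2 differences. The members, lists and rules were chosen with earlier results of these data known. Alternatives covered scaling, a floor, a pseudocount, filters, the variance model, single mutant arrays and the choice of members.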

Additional observations from a re-analysis of the deposited data

Results flagged for a closer look

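The bacterial and phage control probe sets (bioB, bioC, bioD and cre), whose targets are added to the sample and took no part in the comparison, had a median signal of 2986.5 on cwinv4-1 replicate 2 against 1488.5 on wild-type and 1155.5 on replicate 1. They were singled out because a signal outside the main measurement stood above its level on the wild-type array. Of the 18 control probe sets, 17 were above wild-type on replicate 2 and none on replicate 1. Their ratios to wild-type ran from 0.925 to 4.13 on replicate 2 and from 0.665 to 0.841 on replicate 1. The part of this difference in the values of TBL18, TBL38 and TBL39 was not tested, since scaling to these probe sets shifts every probe set of an array alike.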

How the results depend on the processing

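No TBL probe set and no wall gene passed limma's test in any of 10 other settings of scaling, floor, pseudocount, filter and variance model, nor with TBL40 counted among the members. Apart from TBL40, whose unadjusted p is given above, no tested member had an unadjusted p under 0.05 in any of these settings. Of the wall genes, 1 had one after median centring on all values and 1 without a filter. For TBL39 the adjusted p ran from 0.882 to 1.00 and for TBL40 from 0.188 to 1.00. Of all probe sets 33 passed as deposited. The count was 0 after quantile normalization (397 at an unadjusted p under 0.05), median centring on complete probe sets (399), scaling to the control probe sets (0) and a floor at a signal of 222 (479). It was 95 after median centring on all values, 126 without a filter and 90 with a filter at the 50th percentile. The causes were not tested.

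The family's median log2 difference, 0.23 as deposited, was 0.087 when scaled to the control probe sets, 0.11 with the floor and 0.12 with the pseudocount. It was 0.52 over the 4 tested members and 0.59 over the 2 left by the stricter filter, fewer members in each case, and 0.12 to 0.34 with a mutant array left out. At 1.5-fold in place of 2-fold, 1 member (TBL39) was apart from wild-type on both arrays. The number above wild-type on both was 3 after quantile normalization and 0 when scaled to the control probe sets. It was 4 after median centring on all values and 5 after median centring on complete probe sets. Scaling to the control probe sets put the median of all probe sets at 0.43 in replicate 1 and -0.73 in replicate 2. Shares of all probe sets above on both were not counted under these scalings, so these counts have no background beside them. Directions turned as follows. After quantile normalization TBL16 was at -0.11, TBL32 at -0.11 and CSLC12 at -0.25. Scaled to the control probe sets TBL16 was at -0.075, TBL23 at -0.049 and TBL32 at -0.067. AT3G09405 was at 0.011 after median centring on complete probe sets and 0.027 with the pseudocount. With a mutant array left out, TBL23 ran from -0.17 to 0.36, TBL32 from -0.061 to 0.21, TBL37 from -0.48 to 1.06, AT3G03210 from -0.077 to 0.58 and AT3G09405 from -0.76 to 0.69. Scaling to the control probe sets and centring on complete probe sets were added after seeing the data. Leaving out a mutant array leaves no residual degrees of freedom, so those values carry no test. No paired analysis was possible because the groups share only the replicate number 1.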
